A study of Drosophila melanogaster with 2 samples.

Results

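The genes described here are 10 maternal patterning genes of Drosophila melanogaster, osk, bcd, grk, nos, swa, exu, stau, orb, pum and tor, measured in whole adult males. They were chosen by name, and all 10 were found among the 14794 rows of the deposited expression table, with a value above 0 in both libraries. The study asked which transcripts are misregulated in male-sterile heph2 flies, in which heph is disrupted, the fly gene for the polypyrimidine tract-binding protein, an RNA-binding protein. One library came from heph2 homozygous males and 1 from heph2/TM3 males, which served as the control, both from poly(A)+ RNA of whole males aged 1 to 3 days after eclosion. heph2 is a P element insertion in an intron of heph, and TM3 is a balancer of chromosome 3, so the control males also carried 1 heph2 chromosome. The number of flies per library is not given in the sources used here. With 1 library per genotype, the values have no replicate error, no p-value is given, and each difference is one between these 2 libraries. In whole animals, fewer cells of a type and less RNA per cell cannot be told apart.

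The mother loads the egg with mRNAs and proteins that set up the axes of the embryo before its own genes are active. Bicoid marks the anterior end, Oskar builds the pole plasm at the posterior end and Nanos acts there, Gurken signals from the oocyte to the follicle cells that surround it, and Torso receives the signal for both terminal regions. Several of these mRNAs are carried to one place in the oocyte and kept silent until they reach it, and polypyrimidine tract-binding protein is one of the factors that bind osk mRNA and repress its translation in the oocyte. Males make no eggs, but some of these genes also act outside the ovary, for example exu and orb in the testis and pum and stau in neurons.

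The values are FPKM, that is, fragments divided by transcript length in kilobases and by a measure of library depth, so that levels can be compared between genes. FPKM values hold no read counts, but the low values moved in steps of whole reads. One read on 1 kilobase of transcript was worth 0.0215 FPKM in the control and 0.0332 FPKM in heph2, and read numbers given here were estimated from these steps and from transcript lengths. The intervals given with the values are approximate 95% intervals of these reads, and they cover counting error only, not differences between flies or library preparations.

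Before the members are described, it has to be said that both libraries, the control far more, held RNA of eggshell genes. The study describes its flies as males. The 15 eggshell genes found, which follicle cells of the ovary express, summed to 225 FPKM in the control and 14.9 FPKM in heph2, and 2 of them, Cp7Fc and Vm26Ac, were listed at 0 in heph2. Most of the heph2 sum came from 1 gene, Cp15, with 10.2 FPKM there. The genes for the yolk proteins, Yp1, Yp2 and Yp3, summed to 114 FPKM and 14.7 FPKM. Male markers were abundant in both libraries. The testis spermatocyte markers summed to 1011 FPKM and 972 FPKM, and the spermatid markers to 9662 FPKM and 15991 FPKM. The markers of the male soma, roX RNAs and accessory gland genes, summed to 7227 FPKM and 4440.1 FPKM. Whether RNA from females or ovarian tissue entered either library, and whether it has a part in the differences of the members, was not tested. The heph gene itself had 44.0 FPKM in the control sample and 27.2 FPKM in heph2, a log2 ratio of -0.69 over all of its exons. The study reported a severe loss of heph reads downstream of the insertion in heph2 homozygotes, with most transcripts truncated. The value over all exons also counts reads upstream of the insertion, so it does not measure full-length heph mRNA.

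The 10 genes covered a wide range of levels in males. In the control, the highest member, exu, stood 1211-fold above the lowest, bcd, and exu and orb together made up 92.5% of the summed 548 FPKM of the members. In heph2 these same genes, exu and orb, made up 93.9% of the summed 573 FPKM. The abundant members kept close to their control level, and the large differences were in members with little RNA. Of the 10 genes, 3 were at least 2-fold lower in heph2, namely osk, swa and bcd, and 0 were at least 2-fold higher. Over all 13433 rows above 0 in both libraries, 4.21% lay at least 2-fold lower and 3.49% lay 2-fold or more higher. The median log2 ratio of the members was -0.21, against 0.00 over all of these rows. With the heph2 value of osk set at its floor of 3 reads, osk was still the lowest member, so this median could not change. The median is not adjusted for transcript length, with which the ratios fell. The median log2 ratio was 0.32 over the 3037 rows with the shortest transcripts and -0.22 over the 2407 rows with the longest. By median transcript length, stau, orb, pum and tor belonged to the longest. Relative to rows of similar length and level, the median of the members was -0.12, with stau at -0.02, orb at -0.15, tor at -0.22 and pum at 0.31.

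**Figure D1:**
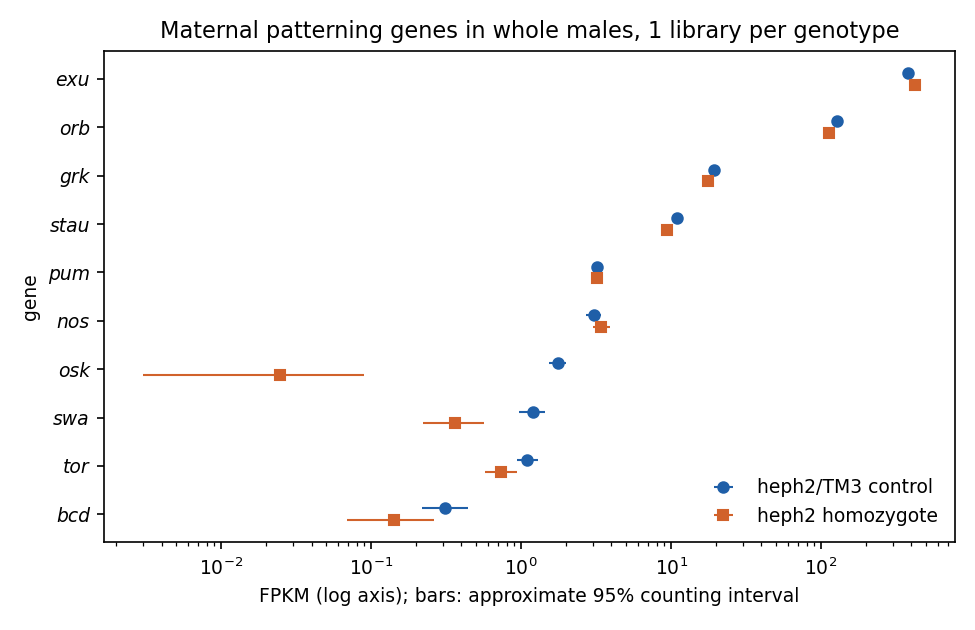
FPKM of each of the 10 genes (log axis) in the heph2/TM3 control library (circles) and the heph2 homozygote library (squares), 1 library each, with approximate 95% counting intervals as bars. The 6 most abundant genes lie close together in both libraries, whereas osk lies at 1.76 FPKM in the control and at 0.0247 FPKM in heph2.

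Low rows differed more often than abundant ones, so the level has to be considered. Among the 1471 rows with a mean FPKM below 1, 18.6% were at least 2-fold lower in heph2 and 9.18% at or beyond 2-fold higher, with a median log2 ratio of -0.35. This class held 4 members, osk, swa, tor and bcd, and the 3 members that were at least 2-fold lower were all among them. The mean includes the heph2 value, so a low heph2 value can itself move a gene into this class. In the control alone, osk, swa and tor were above 1 FPKM, at 1.76, 1.195 and 1.10 FPKM. The classes are therefore not independent of the difference. Among the 11962 rows with a mean FPKM of at least 1, 2.44% were at least 2-fold lower and 2.79% at or beyond 2-fold higher, and 0 of the 6 members in this class were either. The median log2 ratio of these 6 members was -0.07, against 0.01 over the rows of the class.

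**Figure D2:**
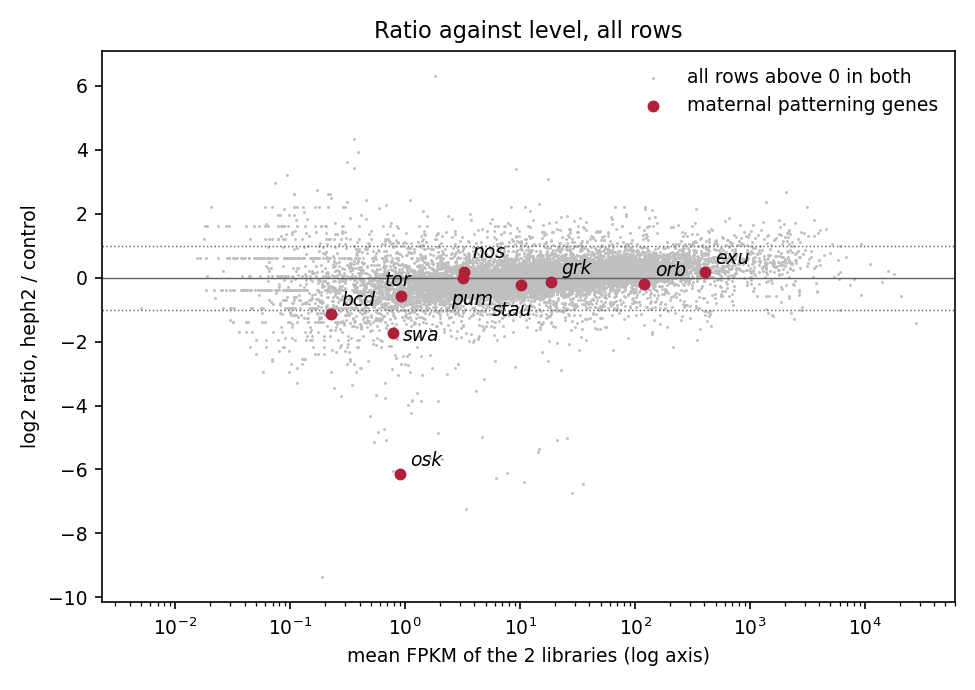
Log2 ratio of heph2 to control FPKM against the mean FPKM of the 2 libraries (log axis) for the 13433 rows above 0 in both (grey) and the 10 genes (red), with dotted lines at 2-fold. The ratios spread more at low levels, where osk lies at a log2 ratio of -6.15 from about 2 heph2 reads.

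Among the posterior genes, oskar (osk, FBgn0003015, chromosome 3R from 4760853 to 4764123 in r5.44) encodes the protein that nucleates the pole plasm. It had 1.76 FPKM in the control, with an interval from 1.53 to 2.01 FPKM, and 0.0247 FPKM in heph2. About 218 reads stood behind the control value and 1.98 reads, that is 2 whole reads, behind the heph2 value. The RNA of osk was thus at a low level in the control library and at the limit of detection in heph2. The ratio of both values was 71.2-fold, with an interval from 19.3-fold to 587-fold lower in heph2, or from -9.20 to -4.27 on the log2 scale. With 2 reads in heph2, the rank of osk among the lowest rows cannot be given. Neighbouring rows did not show such a difference. Of the 8 other rows within 50 kb of osk, 1 was at least 2-fold lower, and their median log2 ratio was -0.03. Both osk transcripts of the BDGP6 annotation have 4 exons and 2869 nucleotides. That annotation also lists a non-coding transcript of osk as a gene of its own, lncRNA:osk, which covers 78.5% of the same exon bases, so the deposited value cannot be assigned to the coding mRNA alone.

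Only rows above 0 in both libraries were compared with osk, so rows listed at 0 in heph2 were left out. The rows closest to osk in both levels, by distance in the plane of the 2 log2 FPKM values, were CG11381, Cp7Fb and Fad2. With 2 reads or so behind the heph2 values of osk and Cp7Fb, these distances and their order are not exact. CG11381 (chromosome X) had 1.55 FPKM in the control sample and 0.0235 FPKM in heph2, at a distance of 0.19. Cp7Fb (chromosome X), a chorion gene of the eggshell, had 1.33 FPKM and 0.0392 FPKM, at a distance of 0.78. Fad2 (chromosome 3L), a fatty acid desaturase of female pheromone synthesis, had 1.04 FPKM and 0.0297 FPKM, at a distance of 0.81. This likeness rests on 2 libraries only, and the rows were picked by it.

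nanos (nos, FBgn0002962, within a shared entry of chromosome 3R from 14974351 to 14988000) and pumilio (pum, FBgn0003165, within a shared entry of chromosome 3R from 4895479 to 5063417) encode translational repressors that act together on hunchback mRNA in the embryo. nos also maintains germline stem cells. The level of nos was 3.04 FPKM in the control and 3.425 FPKM in heph2, from about 300.0 and 219 reads. The level of pum was 3.21 FPKM and 3.18 FPKM, from about 976 and 626 reads. The intervals of the log2 ratio, from -0.09 to 0.43 for nos and from -0.16 to 0.13 for pum, both held 0. Neither gene lay in a locus entry of its own. The entry of nos was shared with 4 further genes, and in BDGP6 11.5% of its exon bases overlap CG11779 on the opposite strand. CG11779 had 65.8 FPKM in the control sample and 69.0 FPKM in heph2, and no strand is stated for the counting, so reads of both genes could be mixed. The genes that also follow this level pattern most closely were CG42343, CG13793 and CG8159, each at a distance from nos of at most 0.04 on the log2 scale. The log2 ratios of nos and exu, 0.1706 and 0.1699, were the highest of the members but cannot be told apart, that of nos turned to -0.11 when both libraries were scaled to the same FPKM total, and that of pum was the highest relative to rows of similar length and level.

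Among the anterior genes, bicoid (bcd, FBgn0000166, within a shared entry of chromosome 3R from 2578586 to 2585199) encodes the homeodomain protein that forms the anterior gradient. It had 0.312 FPKM in the control sample and 0.142 FPKM in heph2, from about 33.6 and 9.88 reads. This was a 2.20-fold lower level in heph2, with an interval from 1.06-fold to 4.997-fold, so that at this depth a difference under 2-fold lay within the counting error. At the shortest bcd transcript, of 1479 nucleotides, the reads would be about 18.6 and 5.46 and the interval wider. The lower limit of 1.06-fold is therefore not firm. The locus entry of bcd is shared with zen, an early embryonic homeobox gene, which had 0.0826 FPKM and 0.0319 FPKM. Of the 7 other rows within 50 kb of bcd, 2 were at least 2-fold lower.

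swallow (swa, FBgn0003655, chromosome X from 6257451 to 6259742), which is needed to place bcd mRNA at the anterior of the oocyte, had 1.195 FPKM in the control sample and 0.362 FPKM in heph2. About 101 and 19.8 reads stood behind these values, on a single transcript of 2022 nucleotides. The level in heph2 was 30.3% of the control, 3.30-fold lower with an interval from 2.01-fold to 5.58-fold, and 1.21% of all rows had a lower log2 ratio than its -1.72. Unlike osk and bcd, swa is not on chromosome 3, the chromosome at which the 2 genotypes differ by design. On chromosome 3, 5.21% of rows were at least 2-fold lower, and on chromosomes X and 2 together 3.23% were. None of the 9 other rows within 50 kb of swa was at least 2-fold lower.

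exuperantia (exu, FBgn0000615, chromosome 2R from 16554924 to 16558379) acts early in the transport of bcd mRNA and is also required in spermatogenesis. It was the most abundant member, with 378 FPKM in the control and 425 FPKM in heph2, above 96.5% and 96.1% of all rows. About 39909 and 29074 reads stood behind these values. Its log2 ratio of 0.17 had a narrow counting interval, from 0.15 to 0.19, but turned to -0.11 when both libraries were scaled to the same FPKM total, so the direction is not given. In BDGP6, 12.1% of the exon bases of exu overlap galla-1 on the opposite strand, so reads of both genes could be mixed.

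staufen (stau, FBgn0003520, chromosome 2R from 14005401 to 14013337) encodes a double-stranded RNA-binding protein that carries osk mRNA to the posterior and anchors bcd mRNA at the anterior. It had 10.95 FPKM in the control sample and 9.43 FPKM in heph2, a log2 ratio of -0.22. orb (FBgn0004882, chromosome 3R from 19090364 to 19106571) encodes the fly cytoplasmic polyadenylation element binding protein, which activates the translation of osk and grk mRNA in the oocyte, and it has transcripts of its own in the testis. It had 129 FPKM in the control sample and 112 FPKM in heph2, a log2 ratio of -0.20. In BDGP6 orb has 7 transcripts from 1964 to 8899 nucleotides, and the gene value pools them. The regulators stau and orb were thus at 86.1% and 87.3% of their control level in heph2, within the range from -0.28 to 0.29 that holds the 50% of all rows around the median.

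gurken (grk, FBgn0001137, chromosome 2L from 8431086 to 8433598) encodes the ligand, related to transforming growth factor alpha, that signals from the oocyte to the Egfr receptor of the follicle cells. It had 19.3 FPKM in the control sample and 17.6 FPKM in heph2, from about 1362 and 807 reads, a log2 ratio of -0.13. grk was therefore the third most abundant member in both libraries, above 57.0% of all rows in the control. In BDGP6, 12.3% of its exon bases overlap Akap200 on the opposite strand. Akap200 had a mean of 91.4 FPKM over the 2 libraries. No strand is stated for the counting, so reads of grk and Akap200 could be mixed.

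torso (tor, FBgn0003733, within a shared entry of chromosome 2R from 3586786 to 3597042) encodes the receptor tyrosine kinase of the terminal system, which in larvae also receives the prothoracicotropic hormone. It had 1.10 FPKM in the control sample and 0.736 FPKM in heph2, from about 150 and 64.8 reads. The level was 1.49-fold lower in heph2, with an interval from 1.11-fold to 2.03-fold, and 10.45% of all rows had a lower ratio. The 3 genes that share its locus entry, CG30493, CG34216 and CG30496, had between 9.88 and 20.9 FPKM in the 2 libraries and log2 ratios from -0.07 to 0.45.

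**Figure D3:**
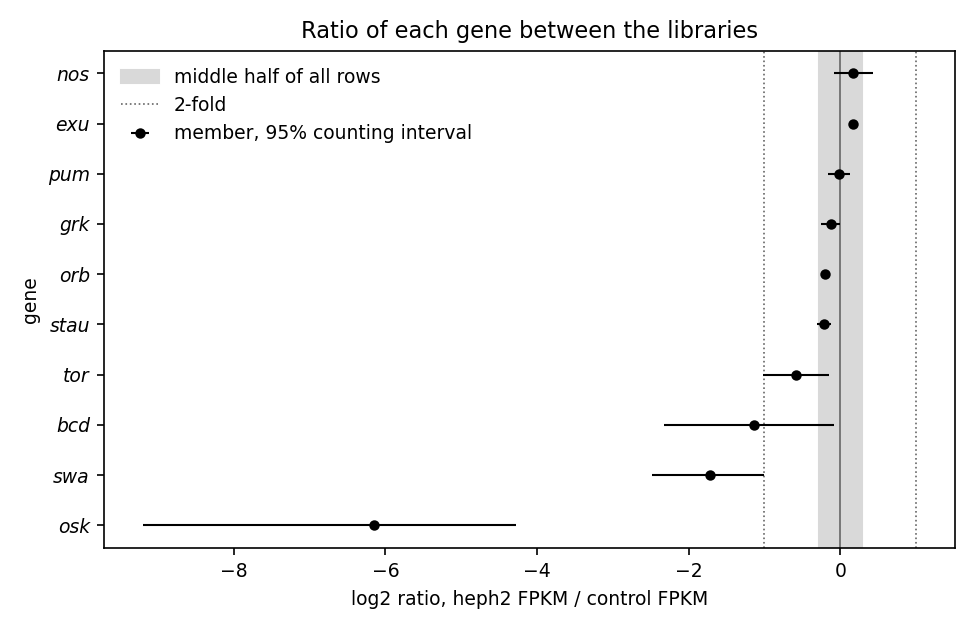
Log2 ratio of heph2 to control FPKM of the 10 genes with approximate 95% counting intervals. The grey band, from -0.28 to 0.29, holds the 50% of all rows around the median, and the dotted lines mark 2-fold. The intervals of osk and swa lie wholly beyond 2-fold, that of bcd crosses it, and 6 genes have ratios between -0.22 and 0.17.

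The order of the levels differed between the libraries in its lower part. In the control it was exu, orb, grk, stau, pum, nos, osk, swa, tor and bcd. The counting intervals of pum and nos overlapped, and so did those of swa and tor, while osk lay above swa with intervals from 1.53 to 2.01 FPKM and from 0.971 to 1.45 FPKM. In heph2 the order was exu, orb, grk, stau, nos, pum, tor, swa, bcd and osk, so that osk went from rank 7 to rank 10. The intervals of nos and pum, of swa and bcd, and of bcd and osk overlapped in heph2. These intervals do not hold the spread between flies, which cannot be had from 1 library.

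The genes that work with these members were looked at through 7 lists. Of the 95 companion genes found, each counted once, 5 were at least 2-fold lower in heph2 and 0 were 2-fold higher, with a median log2 ratio of -0.11. The share of lower genes was near the 4.21% of all rows. All 5 were among the 12 companion genes with a mean FPKM below 1, a class in which 18.6% of all rows were lower, and 0 of the 83 with a mean of at least 1 were, where 2.44% of all rows were. The 5 genes, named for this difference after their values were seen, were snk, otu, ndl, Kr and eve.

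The listed genes around osk mRNA transport and translation, which include pole plasm genes such as vas, did not share the difference in osk. All 26 genes of this list lay between -0.48 and 0.30 on the log2 scale, with a median of -0.06, and 0 were 2-fold lower. vas, the pole plasm helicase and the least abundant of them, had 2.53 FPKM in the control sample and 2.01 FPKM in heph2. yps, a Y-box protein of osk particles and the most abundant, had 138 FPKM and 161 FPKM. heph, whose product also represses osk translation, was not on this list and had a log2 ratio of -0.69 over all of its exons. The 10 genes of bcd mRNA transport had a median of 0.02, from Dhc64C, a dynein heavy chain, with 4.43 FPKM and 3.09 FPKM, to Vps28, an ESCRT subunit, with 149 FPKM and 178 FPKM.

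Of the 23 genes of grk signalling and the dorsoventral axis, 3 were at least 2-fold lower, and the median was -0.10. snk, a serine protease that acts in the cascade around the egg, had 0.818 FPKM in the control sample and 0.134 FPKM in heph2, from about 45.7 and 4.85 reads. otu, which is needed in female germ cells, had 0.868 FPKM and 0.341 FPKM. ndl, the large protease that starts the cascade and is made by follicle cells, had 0.162 FPKM and 0.0697 FPKM. The receptor Egfr, in contrast, had a log2 ratio of -0.10, and cni, the cargo receptor for Gurken and the most abundant gene of the list, had 120 FPKM and 163 FPKM.

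The 14 genes of the terminal system had a median of -0.08, with 0 beyond 2-fold. They ranged in level from tll, with about 2.02 reads in the control and 1.01 in heph2, to rl, the MAP kinase downstream of Torso, with 38.3 FPKM and 48.1 FPKM. All 11 genes listed as partners of nos and pum, the target hunchback (hb) among them, had lower values in heph2. Their median was -0.25, with 0 beyond 2-fold. They ranged from para, a sodium channel, with 0.678 FPKM and 0.427 FPKM, to twin, a deadenylase, with 174 FPKM and 169.6 FPKM. Of all rows, 961 of 1471 with a mean FPKM below 1 and 5803 of 11962 with at least 1 were lower by any amount. The list is not adjusted for transcript length, and the rows with the longest transcripts had a median of -0.22. The 11 genes around orb and polyadenylation had a median of -0.12, from wisp, a poly(A) polymerase of the oocyte, with 1.14 FPKM and 0.884 FPKM, to bol, a regulator of meiosis in the testis, with 201 FPKM and 195 FPKM. Among the 10 zygotic genes downstream of the maternal systems, 2 were at least 2-fold lower, and the median was -0.37. Kr, a gap gene, had 0.800 FPKM and 0.323 FPKM, and eve, a pair-rule gene, had 0.185 FPKM and 0.0781 FPKM, the latter from about 2.84 reads. cad, the most abundant of them, had 20.3 FPKM and 17.2 FPKM.

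**Figure D4:**
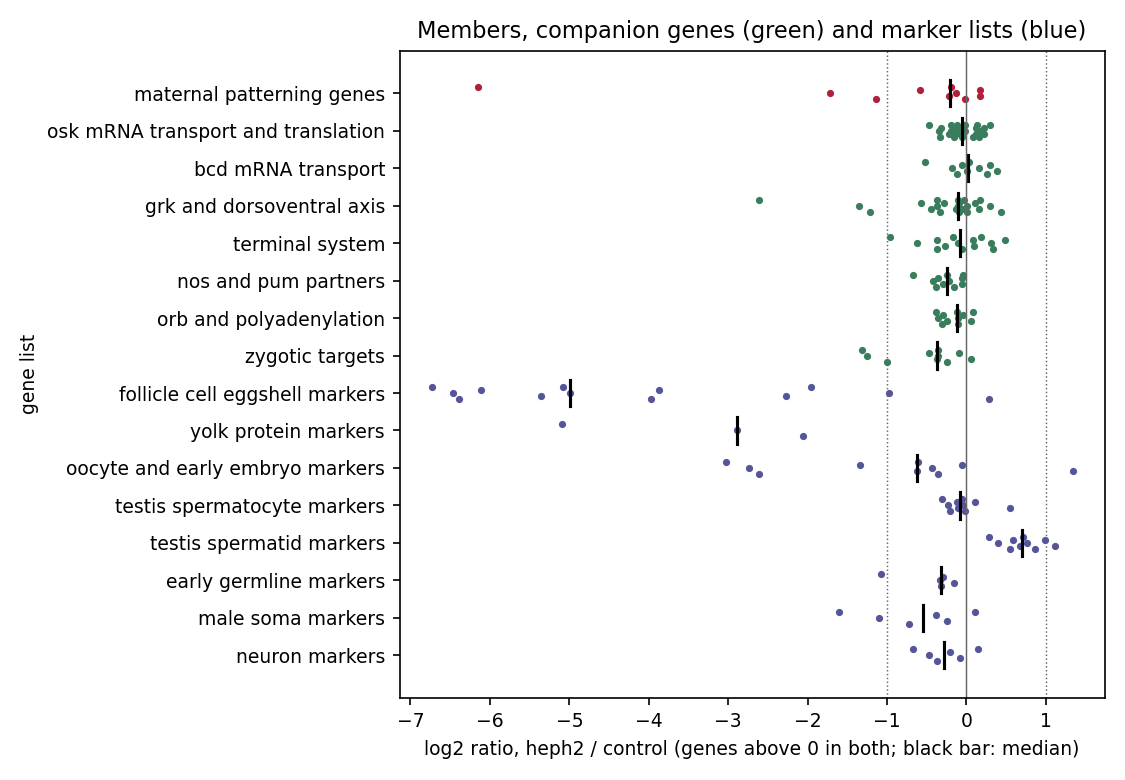
Log2 ratio of heph2 to control FPKM for the 10 genes (red), the 7 companion lists (green) and the 8 marker lists (blue). Each point is 1 gene above 0 in both libraries, black bars are medians, dotted lines mark 2-fold, and points of genes with 3 reads or fewer are less certain than they appear. The companion lists centre between -0.37 and 0.02, while the eggshell markers reach from -6.73 to 0.28.

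Since all 10 members are maternal patterning genes, the markers of other cells are given beside them. Of the 10 oocyte and early embryo markers, 9 had lower values in heph2 and 1 had a higher value. Among these 10 genes, 4 lay at or beyond 2-fold lower and 1 lay at or beyond 2-fold higher, with a median log2 ratio of -0.62. alphaTub67C, a maternal tubulin, had 2.49 FPKM in the control sample and 0.305 FPKM in heph2. dhd, a germline thioredoxin and the most abundant gene of the list, had 30.1 FPKM and 4.94 FPKM. gnu, a regulator of the early embryonic cell cycles, had 1.85 FPKM and 0.276 FPKM, and fs(1)M3 had 0.526 FPKM and 0.207 FPKM. plu, which acts with gnu, had 1.05 FPKM and 2.65 FPKM, in the opposite direction. cort, an activator of the anaphase-promoting complex in female meiosis, had 2.74 FPKM and 2.64 FPKM.

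Among the 15 eggshell markers, 11 of the 13 above 0 in both libraries were at least 2-fold lower. Where a gene with at most 3 reads was given the value of 3 reads, the median log2 ratio was -4.04. Vm34Ca, a vitelline membrane protein and the most abundant of them, had 69.3 FPKM in the control sample and 0.787 FPKM in heph2. Cp15 was the 1 gene with a higher value, 8.36 FPKM in the control against 10.2 FPKM in heph2. Scaling both libraries to the same FPKM total left Cp15 at almost the same level in both. All 3 yolk protein genes were at least 2-fold lower, with a median of -2.89. The early germline markers, which both sexes share, had a median of -0.32, with zpg, a gap junction protein of germ cells, at 1.60 FPKM and 0.760 FPKM. The spermatocyte markers had a median of -0.08 with 0 of 10 beyond 2-fold, and betaTub85D, the testis tubulin, had 659 FPKM and 635 FPKM. All 10 spermatid markers had higher values in heph2, with a median of 0.69, but Mst84Dc at 0.29 and Mst98Ca at 0.39 turned lower when the ratios were centred on the ribosomal protein genes. The ratios of the markers are not adjusted for transcript length, and all rows with the shortest transcripts had a median of 0.32. Mst84Db, a sperm tail protein, had 1700.3 FPKM and 3688 FPKM, beyond 2-fold. Of the 6 markers of the male soma, Acp36DE and Acp70A were at least 2-fold lower, and the 6 neuron markers had a median of -0.29 with 0 beyond 2-fold. What part these cells have in the values of the members was not tested.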

How the data were processed

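The authors mapped single reads of 50 bases from poly(A)+ RNA with TopHat 2.0.4 to the FlyBase r5.44 genome annotation, computed gene values with Cufflinks 2.0.0 and deposited a table with 1 FPKM value for each gene in each library. The deposited table also holds the authors' log2 fold change, which was not used. Groups were taken from the sample labels, and the genotypes and the age of the flies from the methods of the study. Positions are those of the table, which counts starts from 0 (as the locus lengths of 1489 genes against 146 show), so 1 was added.

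Log2 ratios of heph2 to control FPKM were computed without a pseudocount or a minimum, and at least 2-fold was taken as a difference. Reads were estimated from the step of low FPKM values, from median transcript lengths of BDGP6, to which 13462 of 14794 gene identifiers matched, and from an assumed fragment length of 200 ± 80 bases. Among single-transcript genes with up to 10 reads, 62.5% of 477 (control) and 62.5% of 568 (heph2) came within 0.1 of a whole read. For a step fixed in advance, 20% would do so by chance. The step was picked for a high share in these same genes, so 20% is too low a baseline here. Intervals are exact Poisson and, for ratios, exact conditional binomial (Clopper-Pearson) intervals on reads rounded to whole numbers, for the median transcript length. The members and lists were chosen with earlier results of these data known. Named were all members, heph, from each list the genes beyond 2-fold with a mean FPKM of at least 1 or otherwise the most and least abundant, and the 3 rows nearest to the members with the lowest and highest ratio. For some marker lists only part of these are given, and other genes were named after their values were seen. Of the list genes, fs(1)ph and dec-1 were not matched. Python 3.11.15 with numpy 2.4.6, pandas 2.3.3 and scipy 1.17.1 was used, and the steps were tested on simulated data. Sequences were not used here.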

Additional observations from a re-analysis of the deposited data

How the results depend on the processing

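The direction of osk, swa and bcd stayed the same under every alternative that could give their value, but most of these could not have reversed it. A pseudocount cannot change the sign of a ratio, and a filter on rows leaves the ratio as it is. Scaling to equal FPKM totals and centring on ribosomal protein genes moved all ratios down. Relative to rows of similar length and level, where a reversal was possible, the direction also stayed. A pseudocount of 1 FPKM took the log2 ratio of osk to -1.43, of swa to -0.69 and of bcd to -0.20, and left 1 member at least 2-fold lower, with 194 of all rows lower and 277 higher in place of 566 and 469. A minimum mean FPKM of 1 or 5 removed osk, swa, bcd and tor, so 0 members were 2-fold lower, while 292 rows (minimum 1) and 159 rows (minimum 5) were lower and, at a minimum of 5, 289 were higher. Scaling both libraries to the same FPKM total shifted every log2 ratio by -0.28, and centring on the 85 ribosomal protein genes by -0.44. All rows then split into 1038 lower and 257 higher, or 1467 lower and 178 higher, exu and nos turned to lower values, and tor reached -0.86 and -1.02. Relative to rows of similar transcript length and level, bcd was at -0.82, swa at -1.44, osk at -5.84 and pum at 0.31. The median of the members moved by less than 1.5-fold in all 10 alternatives, between -0.65 and -0.07. No replicate could be left out, since each genotype has 1 library. No paired analysis was possible because each group holds 1 sample. Depth limited bcd, with about 9.88 reads in heph2, and osk, with 1.98.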
